A study of Mus musculus with 16 samples.

Results

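The regions described here are those with crowded surroundings: at least 30 other listed regions on the same chromosome had starts within 50 kb of their own. Of 250313 regions in the table, 40350 met this rule, or 16.1%, and they are called members below. Regions whose starts lay in chr2:77650000-77920000 (176 regions, of which 168 had at least 30 others) were left out of the members and of the 209787 other regions with which the members were compared. The rule uses positions and no signal, but the list of regions itself came from the study's own processing, so a stretch is dense only as far as regions were listed there.

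The assay was ATAC-seq, in which the Tn5 transposase places sequencing adapters in open chromatin, so that a higher signal means more accessible DNA. The libraries came from medullary thymic epithelial cells (mTECs) of mice labelled C57BL/6 and aged 4 weeks, sorted as DAPI-negative, CD45-negative, EpCAM-positive, UEA-positive cells with low Ly51 and split by surface MHC class II into mTEChi and mTEClo. Each of 4 genotypes gave 2 libraries per sort: Aire+/+, Aire-/-, Brg1+/+ and Brg1-/-, which makes 16 libraries in 8 groups. Brg1+/+ libraries carry NOCRE in their descriptions, and a Cre may therefore be a second difference between Brg1-/- and its controls; the labels name neither that Cre nor the cells in which it acts. Separate animals are not stated for the 2 libraries of a group, and the p-values below then reflect the spread between these samples alone, which may be technical.

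mTECs transcribe many genes that other tissues use, and thereby display their products to developing T cells. Aire promotes much of that transcription and is found mainly in mTEChi; Brg1 is an ATPase of SWI/SNF complexes, which move nucleosomes and open chromatin. In mammalian genomes, accessible regions lie close together where genes and their promoters are crowded and where many enhancers surround a gene that defines the cell. Which members are promoters, and which genes they adjoin, was not analysed here, because the gene and promoter tables used were not of the mm9 build. For the same reason the labelled cell type was not checked against marker genes and no sequence is shown. In bulk cells, a change in the share of cells that open a region cannot be told apart from a change within each cell.

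Every region was 500 bp long and no 2 starts lay closer than 501 bp. Members formed 1238 neighbourhoods, a neighbourhood being a run of members on 1 chromosome with successive starts at most 50 kb apart. Together the neighbourhoods covered 103.5 Mb; the median one spanned 68.2 kb and held 26 members, the largest held 375, and 79 held a single member. Members were a larger part of the list on some chromosomes than on others. On chromosome 11, 5257 of 17762 regions were members (29.6%), followed by chromosome 15 with 26.0% and chromosome 17 with 22.4%. Chromosomes 3 and 13 had 7.36% and 7.72%, and on chromosome X only 21 of 4214 regions were members (0.498%).

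Members were close-set at short range too. The nearest other start lay at a median of 856 bp from a member and 1859 bp from another region, and it lay within 1000 bp for 58.8% of members against 33.9% of the others. When regions with successive starts at most 1 kb apart were counted as 1 stretch, the median window of 50 kb on either side still held 24 stretches around a member and 12 around another region, beside 36 and 14 other regions counted singly.

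Members were on the whole more accessible than other regions, and the gap was wider in mTEChi than in mTEClo. The median over regions of the mean signal of all libraries was 16.5 for members and 13.8 for the others; 4.95% of members and 3.63% of the others had a mean of at least 100. In mTEChi, the median signal of members was 20.6 and 22.8 in the Aire+/+ libraries, 19.7 and 19.99 in Aire-/-, 14.98 and 16.9 in Brg1+/+, and 18.5 and 22.6 in Brg1-/-. Other regions in those libraries had medians of 14.6 and 17.3, 15.2 and 12.7, 10.4 and 12.5, and 14.9 and 18.8, in the same order. In mTEClo, member medians were 12.8 and 14.6 in Aire+/+, 13.6 and 13.2 in Aire-/-, 10.1 and 9.46 in Brg1+/+, and 10.2 and 11.9 in Brg1-/-. Other regions had slightly lower medians there, between 8.39 and 13.5.

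As a difference of medians on the log2(signal + 1) scale, members stood above other regions by 0.25 to 0.62 in the 8 mTEChi libraries and by 0.053 to 0.19 in the 8 mTEClo libraries, so the sorts did not overlap. The groups gave 0.42 ± 0.066 in Aire+/+ mTEChi, 0.48 ± 0.19 in Aire-/- mTEChi, 0.45 ± 0.051 in Brg1+/+ mTEChi and 0.28 ± 0.034 in Brg1-/- mTEChi (SD, n = 2). In mTEClo they gave 0.089 ± 0.024, 0.058 ± 0.0068, 0.16 ± 0.010 and 0.18 ± 0.014 in the same order. In mTEChi both Brg1-/- libraries (0.30 and 0.25) lay below both Brg1+/+ libraries (0.48 and 0.41), while in mTEClo the Brg1 libraries overlapped (0.17 and 0.16 in Brg1+/+, 0.16 and 0.19 in Brg1-/-). The 2 Aire-/- mTEChi libraries differed most from each other, at 0.35 and 0.62, and lay on either side of both Aire+/+ values. Members held 18.3% to 20.9% of the summed signal in mTEChi libraries and 16.9% to 19.2% in mTEClo libraries, ranges that overlap.

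**Figure D1:**
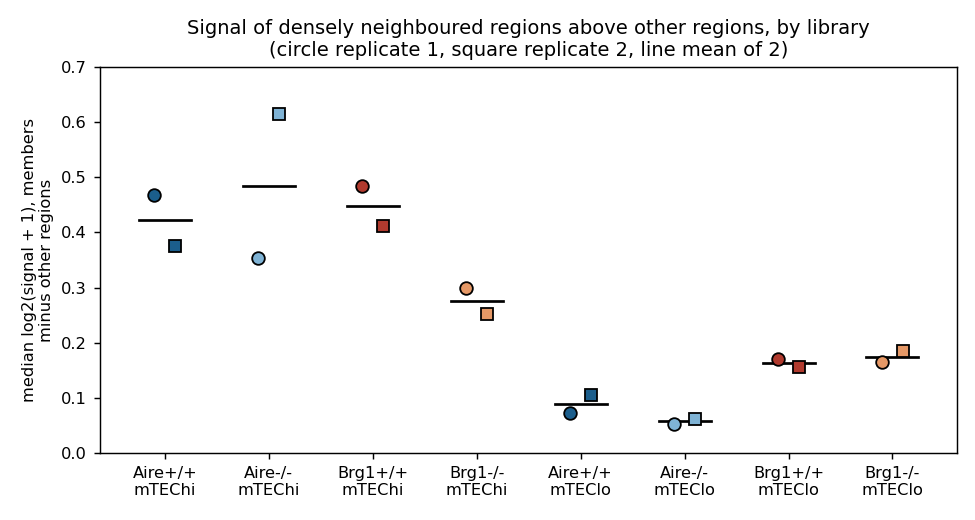
The difference between the median log2(signal + 1) of the members and that of the other regions is plotted for each library, with genotype and sort on the horizontal axis, a circle for replicate 1, a square for replicate 2 and a line at their mean. All mTEChi libraries lie at 0.25 or above and all mTEClo libraries at 0.19 or below; among mTEChi libraries the Brg1-/- pair is lowest.

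Signal followed crowding along its whole range, with no step at the rule's limit. The median of the mean signal was 8.63 for the 2197 regions with no other region within 50 kb, 10.9 for those with 1 to 4 others, 13.9 for 10 to 14, 15.7 for 25 to 29, 16.2 for 30 to 39 and 17.0 for the 13340 with 40 or more. The 4192 members with exactly 30 others had a median of 15.8, and the 4602 regions with exactly 29 others, just outside the rule, had 15.9. The most crowded member had 111 others.

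The sorts were compared region by region with limma on log2(signal + 1), over 225281 regions whose mean signal reached the 10th percentile. Of the members, 38019 were tested and 2331 fell under that filter (5.78%, against 10.8% of the others), so counts below refer to tested members. Calls were made where p, adjusted by Benjamini-Hochberg over every region tested, was under 0.05. The direction of these comparisons rests on the authors' scaling: the log2 fold change of mTEChi against mTEClo had a median over all regions of 0.15 in Aire+/+, 0.062 in Aire-/-, 0.44 in Brg1+/+ and 0.65 in Brg1-/-, and quantile normalization brought these medians to between -0.055 and -0.0034. Shares of members are therefore given beside those of other regions in the same fit.

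A larger share of members than of other regions was called higher in mTEChi in each genotype, by the widest margin in the Aire line and the narrowest in Brg1-/-. In Brg1-/- the members' share called lower was larger as well (1.71% against 1.46%). In either direction, 10.5% of members were called in Aire+/+ (8.79% of all tested regions), 13.2% in Aire-/- (11.4% of all), 14.7% in Brg1+/+ (13.0% of all) and 8.95% in Brg1-/- (8.11% of all). In Aire+/+, 2822 members were called higher, or 7.42%, where 5.14% of all tested regions and 4.68% of the other regions were. In Aire-/-, it was 3829 members or 10.1%, where 7.15% of all and 6.56% of the others were called. Of Brg1+/+, 4234 members or 11.1% were called higher, beside 9.21% of all and 8.83% of the others. In Brg1-/-, 2753 members or 7.24% were, beside 6.61% of all and 6.48% of the others. Members made up 16.9% of tested regions, and they supplied 24.4% of the mTEChi-higher calls in Aire+/+, 23.8% in Aire-/-, 20.4% in Brg1+/+ and 18.5% in Brg1-/-. Replicates lay closer together at members: the pooled SD within groups had a median of 0.66 on the log2 scale, against 0.73 at other regions. The part of this smaller spread in the shares called was not tested.

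Calls in the other direction were less frequent among members than elsewhere in the Aire line. In Aire+/+, 1151 members or 3.03% were called lower in mTEChi, beside 3.65% of all tested regions and 3.78% of the others. In Aire-/-, the 1201 members called lower were 3.16%, beside 4.22% and 4.43%. In Brg1+/+, 1361 members or 3.58% were called lower, beside 3.75% and 3.79%, and in Brg1-/- 649 members or 1.71%, beside 1.50% and 1.46%. In all 4 genotypes at once, 725 members were called higher (1.91%, with 1.34% of all regions) and 219 lower (0.576%, with 0.594% of all regions).

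With no filter, members had a median log2 fold change of mTEChi over mTEClo of 0.32 in Aire+/+ where other regions had 0.12, and 0.29 in Aire-/- where they had 0.017. In Brg1+/+ it was 0.52 against 0.43, and in Brg1-/- 0.62 against 0.65. The central 80% of members reached from -1.06 to 1.80 in Aire+/+, so the shift of the median was small beside the spread among members. Under quantile normalization the member medians were 0.15 in Aire+/+, 0.16 in Aire-/-, 0.078 in Brg1+/+ and -0.017 in Brg1-/-, and those of the other regions -0.046, -0.096, -0.021 and -0.0046. The share of called members that were higher in mTEChi, 71.0%, 76.1%, 75.7% and 80.9% in the order of the genotypes above, was 58.7%, 66.3%, 51.6% and 38.7% after quantile normalization and 46.1%, 66.6%, 42.6% and 17.6% after re-centring. The predominance of mTEChi-higher members thus depends on the scaling in Brg1-/- and, under re-centring, in both wild types, while the members' share called higher exceeded the others' share under both other scalings in each genotype.

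The share called higher was larger the more neighbours regions had. In Aire+/+ it was 2.85% among regions with 1 to 4 others, 4.38% with 10 to 14, 5.72% with 20 to 24, 6.95% with 30 to 39 and 8.35% with 40 or more. The same classes gave 5.32%, 6.15%, 7.74%, 9.23% and 11.8% in Aire-/-, and 6.37%, 8.74%, 9.88%, 10.9% and 11.7% in Brg1+/+. In Brg1-/- they gave 4.95%, 6.48%, 7.17%, 7.12% and 7.49%, with little difference from 20 others upward. The share called lower in mTEChi went the opposite way in the Aire line, from 4.04% with 1 to 4 others to 2.45% with 40 or more in Aire+/+ and from 5.18% to 2.26% in Aire-/-. In Brg1+/+ it was 3.50% and 3.19%, and in Brg1-/- 1.02% and 1.44%.

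**Figure D2:**
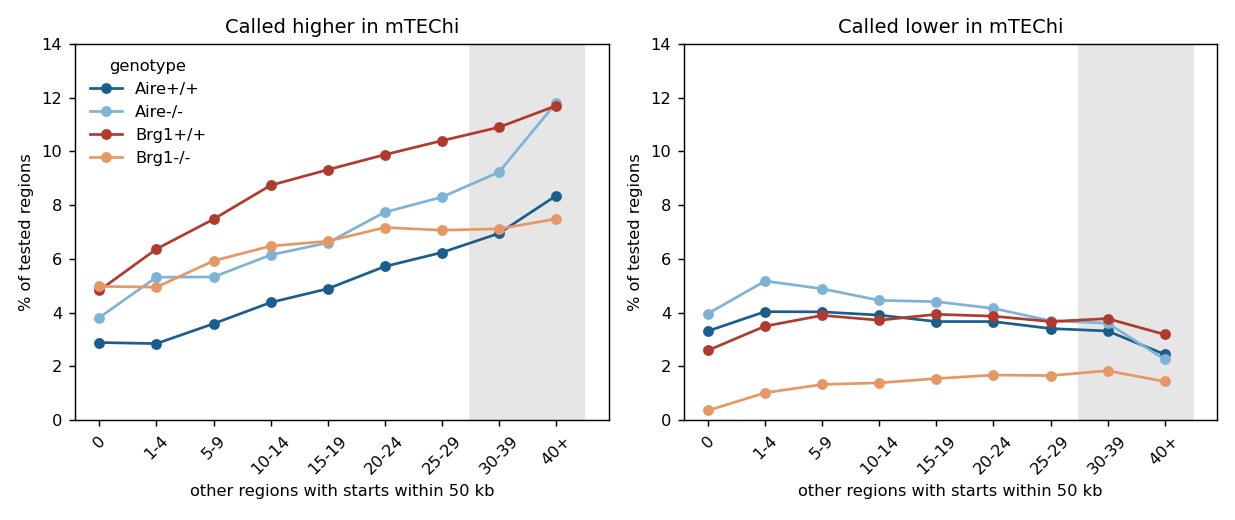
The percentage of tested regions called higher (left) or lower (right) in mTEChi is plotted for 9 classes of the number of other regions within 50 kb, with 1 line per genotype and the members' classes shaded. The mTEChi-higher share climbs along the classes, least in Brg1-/-, and the mTEClo-higher share in Aire-/- falls to 2.26% at 40 or more neighbours.

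Calls were more frequent at brighter regions, so members and other regions were also set side by side within 5 classes of equal size by mean log2 signal. In the brightest class, 12.6% of members and 7.45% of other regions were called higher in Aire+/+ mTEChi, although their median signals were close (58.6 and 55.7). In the class below it the shares were 11.2% and 8.03%, at median signals of 23.9 and 23.9, and in the dimmest class they were 1.79% and 1.52%. Calls in the direction of mTEClo were fewer among members in each of the 5 classes in Aire+/+, with 7.63% against 9.29% in the brightest. In Brg1-/-, the brightest class gave 7.93% of members and 6.83% of other regions called higher, and 5.81% and 5.65% called lower. The middle class of Brg1-/- gave 7.08% and 7.07% called higher, and its dimmest class 3.61% of members and 4.20% of other regions, so there the members' excess was not present in each class of signal.

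The members with the largest sort differences were taken by the same rule in each genotype, and their limma adjusted p-values are given. The largest rise in Aire+/+ was at chr4:141421499-141421998, with 127.2 and 92.7 in mTEChi and, in mTEClo, only 6.15 and 1.12 (log2 fold change 4.81, SE 0.66, adjusted p = 1.75e-05). There, Aire-/- showed 68.4 and 34.5 against 10.4 and 27.4 and Brg1+/+ showed 98.2 and 103.3 against 7.32 and 31.0, so mTEChi exceeded mTEClo in those genotypes as well. For Aire-/-, the largest rise was at chr2:30974510-30975009 (log2 fold change 6.17), and the next, chr4:130922450-130922949, held 126.9 and 178.2 in mTEChi where mTEClo held 1.48 and 5.58 (log2 fold change 5.23, adjusted p = 6.04e-06). A member on chromosome 19, chr19:45136979-45137478, led the rises of Brg1+/+ and held 81.9 and 54.9 against 1.91 and 0.63 (log2 fold change 4.97, adjusted p = 8.34e-06). In Brg1-/-, chr1:58752595-58753094 held 32.6 and 52.2 against 0.51 and 0.41 (log2 fold change 4.86, adjusted p = 0.000259).

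Other members were low in mTEChi and open in mTEClo in the genotype by which they were picked, and not always as low in mTEChi of other genotypes. At chr7:56697459-56697958, which had 46 others in its window, Aire+/+ held 3.31 and 1.84 in mTEChi, where the mTEClo libraries held 71.9 and 93.1 (log2 fold change -4.57, adjusted p = 1.53e-05). There, Brg1-/- held 6.48 and 28.4 in mTEChi against 63.1 and 26.1 in mTEClo, which overlap. In Aire-/-, mTEChi was lowest relative to mTEClo at chr4:153587611-153588110 (log2 fold change -5.53), and the next member, chr5:118789958-118790457, held 0.74 and 5.58 against 134.1 and 112.7 (log2 fold change -5.19, adjusted p = 6.71e-07). At chr5:113665404-113665903, Brg1+/+ held 1.05 and 1.58 against 66.3 and 51.2 (log2 fold change -4.69, adjusted p = 5.18e-06). Aire+/+ held 15.4 and 26.1 in mTEChi at that region, against 74.5 and 104.1 in mTEClo. A region of chromosome 2, chr2:103114987-103115486, led the falls of Brg1-/- with 9.43 and 1.65 against 74.6 and 77.4, and in Brg1+/+ it held 1.46 and 13.0 against 137.1 and 106.5. Of the 40 sort calls named by this rule, 10 per genotype with the chromosome 2 region counted in both Brg1 genotypes, 39 held under each alternative run on them; the exception belonged to Brg1-/- and reached a limma adjusted p of 0.0505.

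Open in every library were the 5 brightest members. The first, chr17:34740519-34741018, ranged from 650.8 to 1092 over the 16 libraries, and the second, chr7:26052936-26053435, from 623.1 to 992.3. In the other 3, at chr5:138069888-138070387, chr7:134352239-134352738 and chr15:100445560-100446059, no library fell below 484.2.

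Many neighbourhoods held members called in opposite directions, though how many would do so if calls fell independently was not worked out. Among the 879 neighbourhoods with at least 10 tested members, 421 held both members called higher and members called lower in Aire+/+ mTEChi (47.9%), 254 held calls of the first kind only, 136 of the second kind only, and 68 held none. Both kinds occurred in 416 neighbourhoods in Aire-/-, in 512 in Brg1+/+ and in 317 in Brg1-/-. Adjacent members were most alike at short range: over pairs, the mean sort difference of the 4 genotypes correlated with Pearson r = 0.41 when starts lay 501 to 1000 bp apart (15105 pairs), 0.26 at 1001 to 2000 bp, 0.21 at 2001 to 5000 bp and 0.14 at 5001 to 10000 bp. Adjacent pairs of other regions gave 0.42, 0.29, 0.23 and 0.18 at the same distances. At 10001 to 20000 bp, r was 0.025 for members (813 pairs) and 0.13 for other regions (30130 pairs). At 20001 to 50000 bp it was -0.12 for the few member pairs left (42) and 0.13 for other regions (20485 pairs). These are descriptions over pairs that share all libraries.

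As wholes, most neighbourhoods leaned toward mTEChi under the authors' scaling, in which the medians of other regions were also above 0. The median log2 fold change of a neighbourhood's members was above 0 in all 4 genotypes in 559 of the 879, below 0 in all in 13, and of mixed sign in 307. Its central 80% ran from -0.21 to 0.79 in Aire+/+, from -0.35 to 0.88 in Aire-/-, from 0.012 to 1.03 in Brg1+/+ and from 0.20 to 1.02 in Brg1-/-. Its middle value was 0.28, 0.25, 0.48 and 0.61 in that order, where other regions had medians of 0.12, 0.017, 0.43 and 0.65. Counts above 0 therefore hold a shift that other regions share, and in Brg1-/- neighbourhoods did not exceed it. The order of neighbourhoods was shared between lines that have no library in common: over the 879, Pearson r was 0.73 and Spearman rho 0.71 between Aire+/+ and Brg1+/+, and 0.57 and 0.55 between Aire-/- and Brg1-/-. Taken singly, members gave r = 0.57 and other regions r = 0.55 between the wild types.

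**Figure D3:**
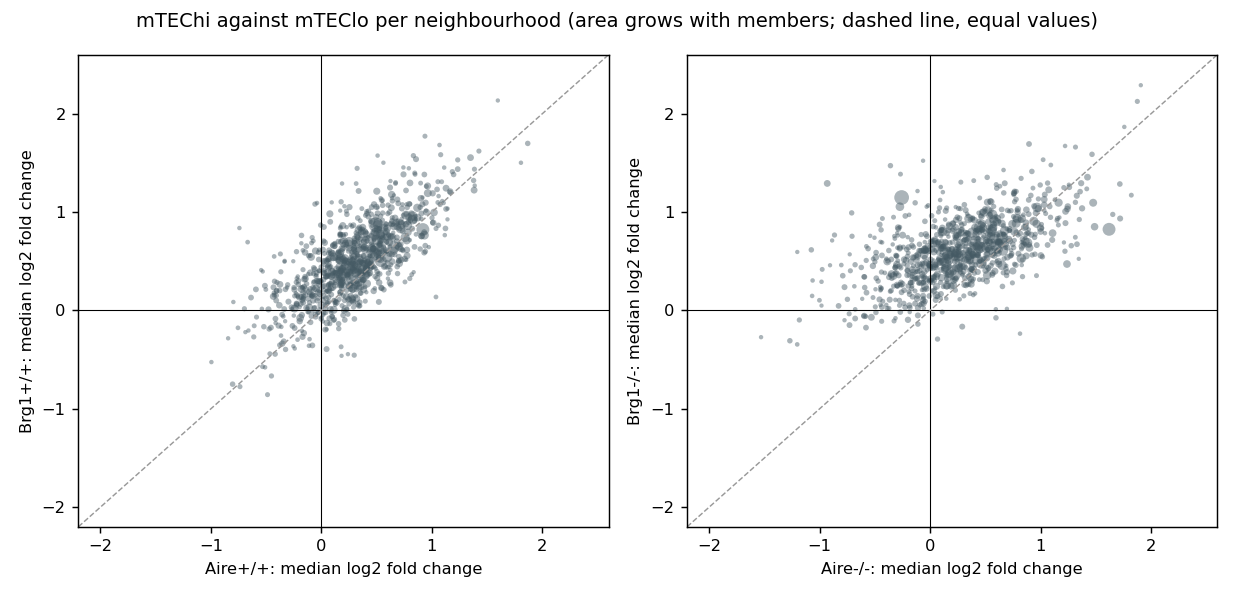
Each of 879 neighbourhoods is a point at the median log2 fold change of mTEChi against mTEClo of its members, in the Aire line (horizontal axis) and the Brg1 line (vertical axis), for wild types on the left and knockouts on the right. Points run along the diagonal in the wild types, r = 0.73, and are flatter in the knockouts, r = 0.57, where most lie above 0 for Brg1-/-.

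The 3 neighbourhoods that leaned most toward mTEChi were chr5:53804890-53878805, chr1:60930085-61005407 and chr11:51620572-51658652. The one on chromosome 5 held 11 members with medians of 1.60, 1.91, 2.13 and 2.29 in Aire+/+, Aire-/-, Brg1+/+ and Brg1-/-. The one on chromosome 1 held 25 members, of which 5, 8, 9 and 9 were called higher and none lower. Its median signal was 15.4 and 16.4 in Aire+/+ mTEChi and 33.0 and 33.3 in Aire-/- mTEChi, groups that did not overlap, with a median log2 fold change of 0.92 between them; no member of it was called between these genotypes. The one on chromosome 11, of 13 members, gave 1.81, 1.76, 1.50 and 1.86.

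Leaning most toward mTEClo were chr1:195329399-195390846, chr10:76579169-76654347 and chr16:30024713-30071495. In the first of them, 8, 10, 7 and 5 of 31 tested members were called lower and none higher, with medians of -0.80, -1.27, -0.75 and -0.31 in the order of the genotypes above. Its median signal in mTEClo was 18.4 and 19.1 in Aire+/+, and in mTEChi it was 12.3 and 16.5. On chromosomes 10 and 16 the medians were -0.84 and -0.45 in Aire+/+, -1.53 and -1.18 in Aire-/-, -0.28 and -0.67 in Brg1+/+, and -0.27 and -0.10 in Brg1-/-.

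Among the 10 largest neighbourhoods, the same 2 led by size and by crowding, in opposite order. The largest neighbourhood had a member with 101 others in its window, and the most crowded had one with 111. The next highest value among the 10 was 73. The largest, chr1:93497201-94059042, spanned 561.8 kb with 375 members, and it was dim throughout: the brightest of its members had a mean signal of 55.2 and the median one 11.1. A single library stood out in it. Aire+/+ mTEChi replicate 2 had a median of 29.4 over these members, where replicate 1 had 11.8 and the other 14 libraries lay between 3.02 and 14.4. The median log2 fold change of Aire-/- against Aire+/+ in mTEChi was -0.82 there with both Aire+/+ libraries and -0.29 without replicate 2, and that of mTEChi against mTEClo in Aire+/+ went from 0.49 to -0.065.

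The most crowded, chr17:34077182-34553149, held 282 members over 476.0 kb, and 1 of them had 111 others in its window. Its members leaned toward mTEChi in every genotype, with medians of 0.92 in Aire+/+, 1.62 in Aire-/-, 0.82 in Brg1+/+ and 0.82 in Brg1-/-. Of 269 tested, 49 were called higher and 1 lower in Aire+/+, 104 and none in Aire-/-, 49 and none in Brg1+/+, and 26 and 2 in Brg1-/-. The median signal was 39.8 and 29.3 in Aire+/+ mTEChi and 37.3 and 56.9 in Aire-/- mTEChi, which overlap, against 11.9 and 13.5 and 11.7 and 12.1 in mTEClo. Chromosome 17 carries the mouse major histocompatibility complex, whose class II products were the marker of the sort; which of these members adjoin those genes was not determined.

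The other 8 of the 10 largest neighbourhoods held 182 to 280 members each. They were chr2:167152523-167947389, chr11:116167128-116829871, chr11:117625449-118128408, chr11:115590706-116099732, chr18:60759569-61234675, chr11:119759350-120254112, chr8:73085669-73436074 and chr10:79209133-79659976. Each had a positive median in all 4 genotypes, from 0.16 (chr11:119759350-120254112 in Aire-/-) to 0.84 (chr2:167152523-167947389 in Brg1-/-). In each genotype more of its members were called higher than lower, which was also so over all tested regions. The medians over all regions were 0.15 in Aire+/+, 0.062 in Aire-/-, 0.44 in Brg1+/+ and 0.65 in Brg1-/-. Each neighbourhood exceeded these in the Aire line, but not in the Brg1 line. In Brg1+/+, chr10:79209133-79659976 (0.38) and chr11:119759350-120254112 (0.43) lay below. In Brg1-/-, most lay below: chr10:79209133-79659976 (0.36), chr8:73085669-73436074 (0.52), chr11:119759350-120254112 (0.56) and, narrowly, chr11:115590706-116099732 (0.639) and chr11:116167128-116829871 (0.642).

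The brightest member of a neighbourhood differed from the members around it, and bright regions outside the members differed from dim ones too. In the neighbourhoods with at least 10 members, the 901 brightest members had a median mean signal of 154.3, other members above the middle rank 30.6, and members below it 11.0. The median log2 fold change of mTEChi against mTEClo at the brightest members was 0.0017 in Aire+/+, -0.016 in Aire-/-, -0.040 in Brg1+/+ and -0.083 in Brg1-/-. At the other members above the middle rank it was 0.37, 0.41, 0.40 and 0.45, and below the middle rank 0.32, 0.20, 0.65 and 0.81. The medians of the brightest members near 0 did not mean few calls: 13.0% were called higher and 11.0% lower in Aire+/+, and in Brg1+/+ 104 of the 901 were called higher and 144 lower. Below the middle rank, 0.520% were called lower in Aire+/+ and 0.314% in Brg1+/+. Other regions in the brightest of the 5 signal classes, at a median signal of 55.7, had median log2 fold changes of -0.0005, 0.053, 0.083 and 0.15. Of these regions, 9.29%, 9.38%, 9.83% and 5.65% were called lower in the order of the genotypes above. In the dimmest class of other regions, 0.288%, 0.681%, 0.0732% and 0.00505% were. More frequent calls lower at bright regions were thus not particular to members. The authors' scaling made the upper percentiles of all libraries nearly equal (the 99th percentile lay between 213.7 and 217.3), and its part in these differences by brightness was not tested.

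**Figure D4:**
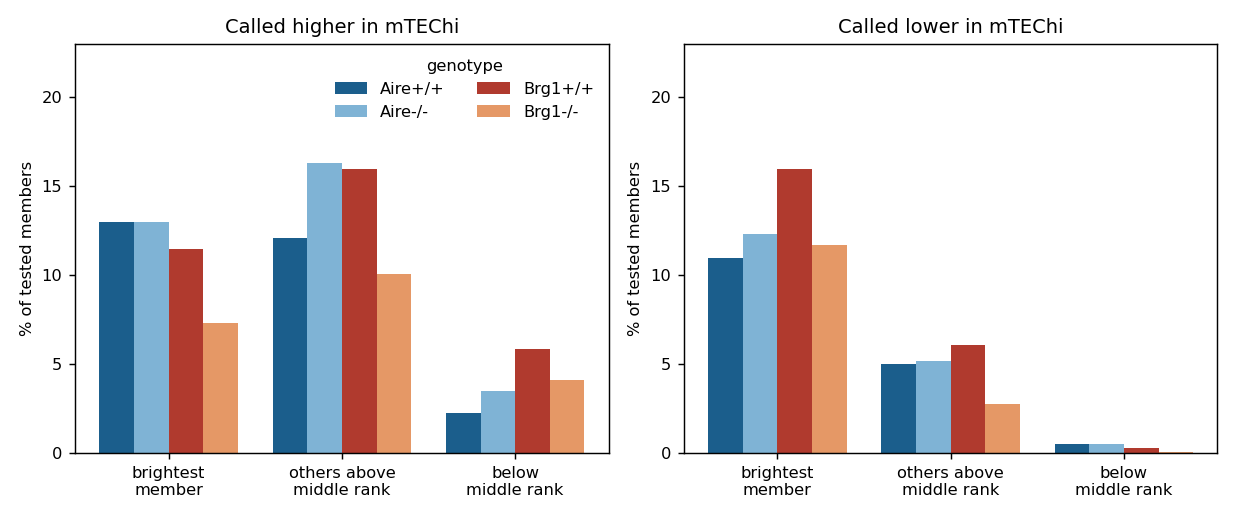
Bars give the percentage of tested members called higher (left) or lower (right) in mTEChi, by genotype, for the brightest member of each neighbourhood, the other members above the middle rank by mean signal and those below it. Calls lower in mTEChi are most frequent at the brightest members, where they reach 11.0% or more in each genotype, and make up at most 0.520% below the middle rank.

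Loss of Aire moved few members past the test. In mTEChi, 3 members rose and 3 fell in Aire-/-, 0.0158% of those tested, where 0.0209% of all regions were called (0.0111% higher and 0.00977% lower). After quantile normalization 4 members rose and 11 fell, and after re-centring 1 rose and 0 fell, so the split depends on the scaling. The rise with the smallest adjusted p was at chr13:23545208-23545707, which held 13.1 and 9.12 in Aire+/+ and 60.5 and 71.2 in the knockout (limma log2 fold change 2.48, SE 0.37, adjusted p = 0.0245). Its mTEClo libraries held 78.5 and 94.7 in Aire+/+ and 74.2 and 101.9 in Aire-/-, so the low values were those of Aire+/+ mTEChi. The other rises were at chr17:45922302-45922801, from 3.64 and a listed 0 to 26.8 and 27.2, and at chr6:31140555-31141054, from 6.75 and 2.00 to 36.2 and 47.9.

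The falls were at chr1:93873669-93874168, inside the dim largest neighbourhood, from 33.6 and 53.2 to 0.77 and 1.49 (log2 fold change -4.36), at chr4:153587611-153588110, from 17.3 and 28.0 to 0.70 and 1.34 (log2 fold change -3.52), and at chr9:70736896-70737395, from 176.2 and 163.0 to 91.9 and 67.6 (log2 fold change -1.09). The last stayed bright in mTEClo, with 186.3 and 187.3 in Aire+/+ and 223.1 and 209.8 in Aire-/-. The wild type of the other line did not always side with Aire+/+. Brg1+/+ mTEChi held 44.0 and 21.3 at the chromosome 17 region and 39.1 and 26.0 at the chromosome 6 region, which overlap Aire-/- mTEChi; at the remaining 4 of the 6 both its libraries lay beyond both Aire-/- libraries on the side of Aire+/+. None of the 6 calls held under every alternative, and none was made when the fit held the 8 libraries of the Aire line alone. Without Aire+/+ mTEChi replicate 1, the median log2 fold change was -0.063 over every member and -1.50 in the largest neighbourhood, where replicate 2 stood out. Before adjustment, 3655 members had a limma p under 0.05 in mTEChi, or 9.61%, where 10.2% of all regions did. In mTEClo limma called 0 members (0% of all regions), and 921 members had an unadjusted p under 0.05, or 2.42%, where 2.50% of all regions passed that.

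Over every member, the median log2 fold change of Aire-/- against Aire+/+ was -0.018 in mTEChi, where other regions had -0.026, and -0.047 in mTEClo, where they had 0.011. The central 80% of neighbourhood medians ran from -0.33 to 0.28 in mTEChi and from -0.19 to 0.12 in mTEClo. Across the 879 neighbourhoods the Aire differences in the 2 sorts, which share no library, had r = 0.0092.

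Loss of Brg1 was called at 12 members in mTEChi, 5 higher and 7 lower, which is 0.0316% of those tested beside 0.0257% of all regions. By direction, 0.0146% of all regions were called higher and 0.0111% lower, where the members gave 0.0132% and 0.0184%. The split depends on the scaling: 3 members were called higher and 16 lower after quantile normalization, and 1 and 37 after re-centring. The fall with the smallest adjusted p was at chr4:126994287-126994786, from 27.5 and 55.3 in Brg1+/+ to 2.01 and 1.99 in Brg1-/- (log2 fold change -3.74, SE 0.63, adjusted p = 0.021), and mTEClo had 27.3 and 38.7 in the wild type and 12.9 and 12.2 in the knockout. At chr16:31532669-31533168, signal fell from 73.1 and 110.8 to 28.7 and 18.9 in mTEChi (log2 fold change -1.90), and its mTEClo libraries held 157.2 and 117.8 against 100.1 and 64.9. At chr12:112624628-112625127, it fell from 164.1 and 137.6 to 44.7 and 55.3 in mTEChi (log2 fold change -1.58), while in mTEClo the groups held 93.1 and 94.2 against 142.3 and 99.4. The other falls were at chr15:98721749-98722248, chr19:46449917-46450416, chr5:113036846-113037345 and chr15:101025502-101026001, with log2 fold changes of -2.07, -1.998, -1.75 and -1.51.

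The 5 members that rose were low in Brg1+/+ mTEChi, with no library above 8.15. At chr8:11342978-11343477, signal rose from 1.37 and 2.12 to 17.7 and 30.3 (log2 fold change 3.15, SE 0.56, adjusted p = 0.0342), while the mTEClo libraries had 61.9 and 48.0 (Brg1+/+) and 53.2 and 80.3 (Brg1-/-). At chr12:112713333-112713832 it rose from 3.10 and 1.82 to 25.2 and 23.1, and at chr5:66468648-66469147 from 5.80 and 8.15 to 34.5 and 44.0. The remaining 2, chr11:75747393-75747892 and chr1:94023966-94024465, rose from 1.53 and 2.68 to 24.3 and 36.8 and from 1.53 and 2.46 to 27.1 and 25.5, the latter inside the largest neighbourhood. In each of the 5, both Brg1+/+ mTEChi libraries lay below both Brg1+/+ mTEClo libraries; the same low values entered the choice of these members. Aire+/+ mTEChi, the same sort in the wild type of the other line, held 33.8 and 40.9 at the chromosome 11 region and 32.6 and 21.8 at the chromosome 1 region, values that overlap those of Brg1-/- mTEChi, and 28.4 and 26.9 at chr12:112713333-112713832, above both Brg1-/- libraries. Both its libraries lay below both Brg1-/- libraries at 2 of the 5 members that rose, and above both at 7 of the 7 that fell. None of the 12 calls held under every alternative, and none was made when the fit held the 8 libraries of the Brg1 line alone. Before adjustment, 3718 members had a limma p under 0.05 in mTEChi, or 9.78%, beside 10.7% of all regions. In mTEClo limma called 0 members, with 0.000444% of all regions called, and 2206 members passed an unadjusted p under 0.05, or 5.80%, beside 6.15% of all regions.

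**Figure D5:**
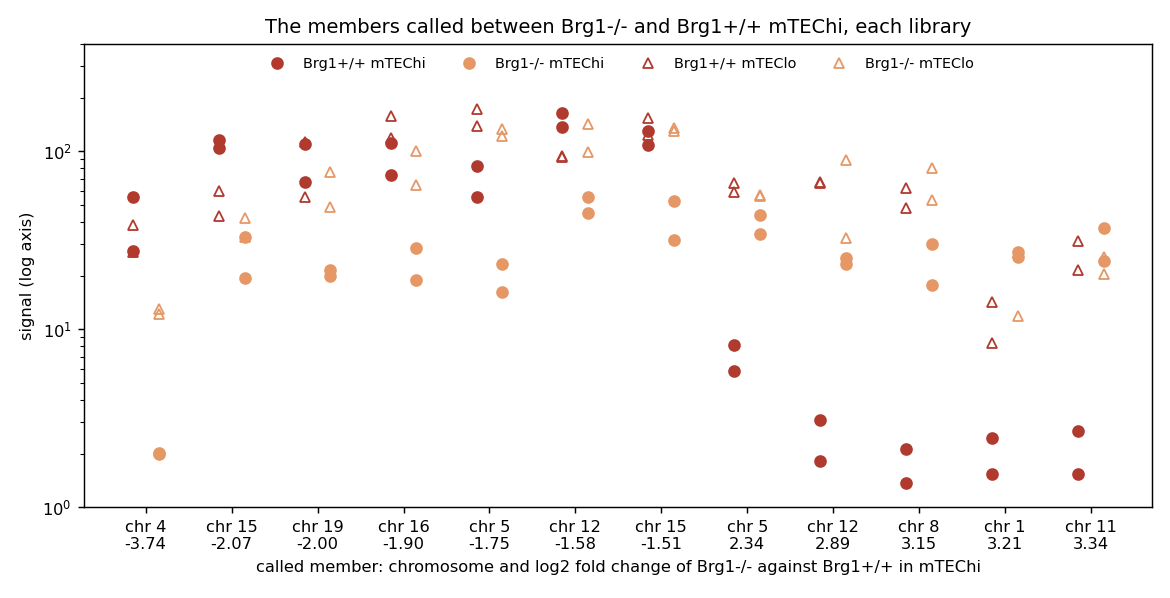
Signal on a log axis is shown for the 12 members called between Brg1-/- and Brg1+/+ mTEChi, ordered by log2 fold change, with filled circles for the 2 libraries of each mTEChi group and open triangles for those of each mTEClo group. In the 5 members on the right, the Brg1+/+ mTEChi circles lie under 10 and the triangles of both genotypes above them.

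The median log2 fold change over every member was 0.16 for Brg1-/- against Brg1+/+ mTEChi, where other regions had 0.26; after quantile normalization the medians were -0.062 and 0.010, so their signs depend on the scaling and the lower position of the members does not. The median fell along the classes of crowding, from 0.34 with 1 to 4 others to 0.26 with 10 to 14, 0.17 with 30 to 39 and 0.12 with 40 or more. It was lower for members than for other regions in each of the 5 classes of signal, with -0.027 and 0.063 in the brightest and 0.43 and 0.50 in the dimmest. In mTEClo the medians were 0.079 and 0.056. Whether members and other regions differ in their response to loss of Brg1 was not tested; with 2 libraries a group, an exact permutation of labels could not give a two-sided p under 0.05.

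The difference between the sorts was also compared between genotypes, as an interaction of knockout and sort. limma called 0 members for Aire (0.000444% of all regions) and 0 for Brg1 (0% of all regions), beside 1881 (4.95%) and 2452 (6.45%) members at an unadjusted p under 0.05. No single member was therefore shown to depend on Aire or Brg1 for its difference between the sorts.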

How the data were processed

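The authors deposited 1 table of signal values for 500 bp regions in 16 ATAC-seq libraries; all of its columns matched library descriptions. Bowtie2, MACS2 and mm9 are named in the submitters' processing notes; the sources used here do not give how regions were defined, Tn5 offsets and duplicates treated or libraries scaled. This signal is not a count, so depth is unknown and no interval for counting error is given. Names were read as BED positions, and printed starts are counted from 1.

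The members and lists were chosen with earlier results of these data known. limma 3.58.1 in R 4.3.3 fitted 1 mean per group to log2(signal + 1) over all libraries (8 residual degrees of freedom, trend and robust settings), after leaving out regions with a mean under 7.48. There were 10 contrasts, two-sided. The procedure was tested on simulated data. Fold changes on this scale understate changes of low regions. Medians use all regions, unfiltered, except those within classes of signal, which use tested regions. Named members were, per contrast and direction, the 5 with the largest change among those called, at or above the median signal and with groups not overlapping, plus the 5 brightest and every member called in a knockout. Named neighbourhoods were the 10 largest and the 3 at each end of the sort difference. Pseudocounts, filters, scalings, member rules, libraries fitted, a replicate block, chromosome X and single libraries were varied; a reduction to the first region of each touching stretch was added after the data were seen.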

Additional observations from a re-analysis of the deposited data

How the results depend on the processing

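The members' share called higher in mTEChi exceeded that of other regions in each of 19 settings per genotype, by 1.41 to 1.69 times in Aire+/+, 1.34 to 2.24 in Aire-/-, 1.17 to 1.41 in Brg1+/+ and 1.05 to 1.22 in Brg1-/-; for calls lower in mTEChi the ratio was 0.657 to 0.882, 0.521 to 0.976, 0.840 to 0.999 and 0.956 to 1.24. Percentages of members called between the sorts in Aire+/+, Aire-/-, Brg1+/+ and Brg1-/- were 10.5%, 13.2%, 14.7% and 8.95%. They became 18.1%, 22.1%, 23.5% and 13.5% with a filter at the 50th percentile, which tests fewer and brighter regions, and 7.86% and 4.57% in the Brg1 genotypes after quantile normalization. Leaving out 1 library, which lowers the residual degrees of freedom and leaves a lone library assumed to vary like the other groups, gave 3.60% to 7.28%, 5.29% to 6.46%, 5.99% to 8.34% and 3.00% to 4.58%.

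For Aire-/- in mTEChi (0.0158%), the share was 0.00861% with 1 region per touching stretch, 0.00526% with a pseudocount of 0.5, 0.0395% after quantile normalization, 0.00263% after re-centring, 0.00496% without a filter, 0.0298% with the 50th percentile filter, 0% with only the line's libraries, and 0.0184% to 0.947% without 1 library, the highest without Aire+/+ replicate 1. In mTEClo it was 0% to 0.0105% without 1 library. For Brg1-/- in mTEChi (0.0316%), it was 0.0105% with a pseudocount of 5, 0.05% after quantile normalization, 0.100% after re-centring, 0.0511% with the 50th percentile filter, 0% with only the line's libraries and 0.05% to 0.139% without 1 library. The interactions gave 0% to 0.0421% (Aire) and 0% to 0.00526% (Brg1) without 1 library. The causes were not tested. The median of members minus that of other regions for mTEChi against mTEClo in Aire-/- went from 0.27 to 0.38 with at least 40 others, and that of Aire-/- against Aire+/+ in mTEChi from 0.0082 to -0.071 without Aire-/- replicate 2 (-0.071 to 0.073 over the 4 libraries).

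With the replicate number within a line as a block, the members called were 0.00526% for Aire-/- and 0.0184% for Brg1-/- in mTEChi, and 10.3%, 13.2%, 14.6% and 8.80% between the sorts; same-numbered libraries did not deviate together (r from -0.018 to 0.034), so the numbers are not taken as pairs.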
